A study of Mus musculus with 4 samples.

Results

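The CC chemokine ligands Ccl2, Ccl3, Ccl4, Ccl6, Ccl7, Ccl8, Ccl9, Ccl12, Ccl22 and Ccl24 were followed in leukocytes of healing mouse skin wounds. They were taken by symbol from the gene table of the data, as 10 of its 31053 genes. The study asked how loss of Angptl4, which encodes the secreted glycoprotein angiopoietin-like 4, alters the immune cells of a wound. Single cells were sequenced from Angptl4+/+ mice (here wild-type) and from Angptl4-/- mice (here knockout), which lack the gene in every cell type and not in leukocytes alone. All were males on the strain C57BL6/J, and the wild-type mice were 8 weeks old. Full-thickness wounds of 3 mm were made on the back with a biopsy punch, and living CD45+ cells, the leukocytes, were sorted from wound tissue 1 and 5 days postwounding (dpw). Each genotype and day is 1 library, so the 4 libraries have no replicates, and the number of mice behind each is not given in the sources used here. Differences between libraries are therefore given without a test. Intervals are 95% intervals from the UMI counts (unique molecular identifiers, which mark single captured RNA molecules) and cover counting error only.

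CC chemokines are small secreted proteins that guide leukocytes through G protein-coupled receptors, with a pair of adjacent cysteines that gives the family its name. Neutrophils, monocytes and macrophages of inflamed tissue release many of them, and receptors such as Ccr1 and Ccr2 on arriving myeloid cells read many of those studied here. In skin wounds, Ccl2 acting through Ccr2 is the classical signal for the entry of blood monocytes. Chemokines of this family show partial redundancy, since several ligands share a receptor and several receptors share a ligand.

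In the GRCm38 assembly, 8 of the 10 genes lie on chromosome 11 in a pair of blocks. The monocyte chemoattractant genes Ccl2 (chr11:82035571-82037453), Ccl7 (chr11:82045712-82047525), Ccl12 (chr11:82101845-82103400) and Ccl8 (chr11:82115185-82116799) lie in this order on the plus strand within 81.2 kb. The macrophage inflammatory protein block spans 91.8 kb and holds Ccl9 (chr11:83572919-83578636), Ccl6 (chr11:83587882-83593087) and Ccl3 (chr11:83647844-83649355) on the minus strand and Ccl4 (chr11:83662584-83664683) on the plus strand. Ccl22 lies apart on chromosome 8 (chr8:94745590-94751699, plus strand) and Ccl24 on chromosome 5 (chr5:135569937-135573049, minus strand). The genes of a block are near relatives of each other, and how reads from stretches they share were divided between them was not examined.

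Promoter sequence was found in the RefSeq table (GRCm38.p6) for 6 of the 10 genes, as windows of 300 bases from 250 before to 50 after the start site. Windows for Ccl2, Ccl4, Ccl7 and Ccl24 were not used here. Both strands were searched for 4 motifs: the NF-kB consensus, which occurs in 4.51% of all 32851 such windows, the AP-1 motif TGANTCA (7.81%), the core GAGGAA of the myeloid ETS factor PU.1 (28.3%) and the TATA box TATAAA (13.6%). The windows of Ccl6 and Ccl22 held none of them. The other 4 windows are shown because they pair macrophage-restricted neighbours with the neutrophil-led Ccl3 (chr11:83649329-83649628, minus strand) and with Ccl9 (chr11:83578587-83578886, minus strand), which came mainly from macrophage-like cells. The neighbours are Ccl12 (chr11:82101595-82101894, plus strand) and Ccl8 (chr11:82114935-82115234, plus strand). The windows are read 5′ to 3′ along the gene with the motif matches in capitals:
Ccl12: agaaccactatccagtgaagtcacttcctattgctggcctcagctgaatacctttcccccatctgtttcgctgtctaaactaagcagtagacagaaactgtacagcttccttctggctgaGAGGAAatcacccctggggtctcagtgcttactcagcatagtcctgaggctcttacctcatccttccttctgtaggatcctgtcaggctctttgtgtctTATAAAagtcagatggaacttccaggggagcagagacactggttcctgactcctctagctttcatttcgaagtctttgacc
Ccl8: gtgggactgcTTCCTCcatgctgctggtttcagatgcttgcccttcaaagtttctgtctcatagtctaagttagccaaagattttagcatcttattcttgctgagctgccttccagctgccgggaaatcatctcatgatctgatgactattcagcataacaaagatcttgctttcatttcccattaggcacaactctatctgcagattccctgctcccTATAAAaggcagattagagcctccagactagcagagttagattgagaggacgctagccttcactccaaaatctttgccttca
Ccl3: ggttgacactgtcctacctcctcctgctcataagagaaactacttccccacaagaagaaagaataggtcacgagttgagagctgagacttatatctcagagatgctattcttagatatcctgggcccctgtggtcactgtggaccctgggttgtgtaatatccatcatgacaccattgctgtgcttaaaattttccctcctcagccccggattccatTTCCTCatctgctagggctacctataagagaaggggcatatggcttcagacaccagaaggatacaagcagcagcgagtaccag
Ccl9: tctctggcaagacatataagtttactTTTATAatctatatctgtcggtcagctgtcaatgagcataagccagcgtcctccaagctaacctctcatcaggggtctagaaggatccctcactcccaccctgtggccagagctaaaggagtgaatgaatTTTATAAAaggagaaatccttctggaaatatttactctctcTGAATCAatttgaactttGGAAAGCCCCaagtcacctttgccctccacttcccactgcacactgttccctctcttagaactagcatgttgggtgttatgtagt
The windows of Ccl12 and Ccl8 shared a TATA box, at 31 and 32 bases before the start, and a GAGGAA match, at 130 and 240 bases before it. The Ccl3 window held a GAGGAA match 33 bases before the start. In the Ccl9 window an NF-kB match lay 35 bases and an AP-1 match 53 bases before the start, and TATAAA matches lay at 224, 94 and 92 bases before it, of which the last pair overlap. A match is a stretch of letters and not evidence that a factor binds there.

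The libraries held 4772 to 5419 barcodes and between 26981596 and 32962595 UMIs, and 19827 of 20069 barcodes passed the cell filter. Angptl4 had 47 and 78 UMIs in the wild-type libraries at 1 and 5 dpw and 0 in both knockout libraries. At least 1 UMI of Ptprc, which encodes CD45, was seen in 89.8 to 93.8% of cells, and pairs of libraries shared at most 0.311% of their barcodes. Clustering gave 12 clusters, which were named from marker genes and are called X-like because the names were rebuilt here. The summed neutrophil markers reached 106297 to 219249 CPM (UMIs of a gene or list per 1000000 UMIs of the class) in neutrophil-like cells and at most 12910 in the other myeloid classes (dendritic cell-like, macrophage-like, monocyte-like). Macrophage markers summed to 14820 to 20384 CPM in macrophage-like cells and to at most 4077 in the other 3 classes. Neutrophil-like cells made up 72.8% of the wild-type and 77.1% of the knockout library at 1 dpw and 54.7% and 74.0% at 5 dpw, while macrophage-like cells made up 21.5%, 17.6%, 31.3% and 13.7% in the same order. Erythroid genes summed to 513 CPM in the knockout library at 5 dpw and to at most 3.39 CPM in the others, and the part of this in the results was not tested. The 35 CC ligand and receptor genes were kept out of the clustering, so that no member defined a class.

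The 10 ligands together took 1.01% and 1.05% of all UMIs at 1 dpw in wild-type and knockout wounds, and 0.538% and 0.718% at 5 dpw. Each of them came largely from 1 or 2 classes of cell, and those classes differed from ligand to ligand. Neutrophil-like cells supplied 91.4 to 95.6% of the Ccl3 UMIs and 88.5 to 95.5% of the Ccl4 UMIs of a library. The monocyte chemoattractants came from macrophage-like cells, with 83.3 to 94.9% of Ccl2, 97.5 to 98.9% of Ccl7, 98.1 to 100% of Ccl8 and 97.6 to 99.5% of Ccl12. Ccl24 shared this source, at 97.6 to 99.8%. When these and the monocyte-like and dendritic cell-like cells were clustered again, a sub-cluster of 572 cells led by Dmkn and Vcan was named monocyte-like. Of its cells 99.1% were in the macrophage-like class, and it held 14.1% of all Ccl2 UMIs. Dendritic cell-like cells supplied 94.5 to 99.4% of Ccl22. Ccl9 came mainly from macrophage-like cells (71.5 to 88.7%), with 5.84 to 19.3% from neutrophil-like cells, and Ccl6 was divided between neutrophil-like (27.8 to 69.5%) and macrophage-like cells (26.1 to 67.9%).

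**Figure D1:**
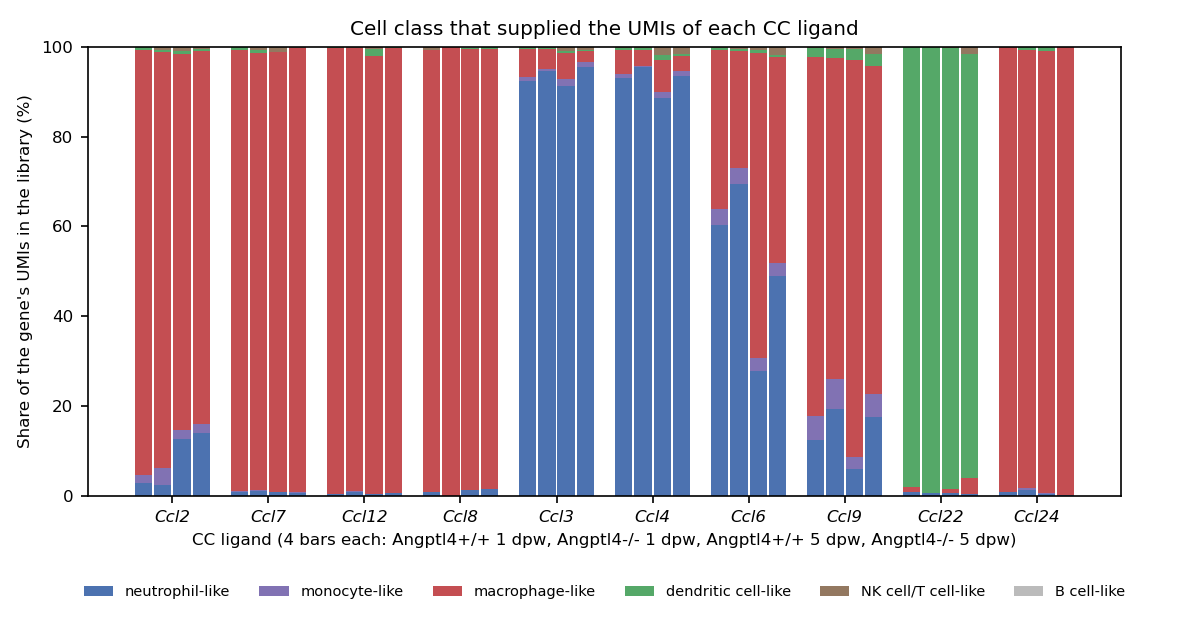
Share of each ligand's UMIs (vertical axis, percent of the library) that came from each cell class, with 1 stacked bar per library. Ccl3 and Ccl4 bars are filled by neutrophil-like cells (88.5% or more), Ccl7, Ccl8, Ccl12 and Ccl24 bars by macrophage-like cells (97.5% or more), and Ccl22 bars by dendritic cell-like cells (94.5% or more).

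Ccl2, the main ligand of the monocyte receptor Ccr2, measured 642 CPM (626 to 659) in macrophage-like cells of wild-type wounds at 1 dpw, against 280.4 CPM (271 to 289.7) by 5 dpw. In knockout wounds the same class held 615 CPM (595 to 635) on the earlier and 393 CPM (379.6 to 408) on the later day. The 1 dpw libraries were thus both above the 5 dpw libraries, with log2 ratios of 5 to 1 dpw of -1.19 (-1.26 to -1.13) in wild-type and -0.64 (-0.71 to -0.57) in knockout wounds. Between genotypes the log2 ratio of knockout to wild-type was -0.06 (-0.12 to -0.002) at 1 dpw and 0.49 (0.42 to 0.56) at 5 dpw. Ccl2 was a common transcript in this class: 48.6% of wild-type and 50.2% of knockout macrophage-like cells had a UMI at 1 dpw, and 41.1% and 44.3% at 5 dpw. After each cell was thinned to 1000 UMIs, these shares were 27.02%, 29.9%, 15.4% and 18.3% in that order.

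Ccl7, a broader monocyte attractant that binds Ccr1, Ccr2 and Ccr3, stood in wild-type macrophage-like cells at 425 CPM (411 to 438) on 1 dpw and 212 CPM (205 to 220.4) on 5 dpw. In knockout wounds it was at 524 CPM (506 to 543) and 374 CPM (360.1 to 388). Both knockout libraries were above the wild-type library of the same day, by a log2 ratio of 0.30 (0.24 to 0.37) at 1 dpw and 0.81 (0.74 to 0.89) at 5 dpw. From 1 to 5 dpw the log2 ratio was -0.999 (-1.07 to -0.93) in wild-type wounds, just short of 2-fold, and -0.49 (-0.56 to -0.41) in knockout wounds. At equal depth Ccl7 was found in 40.1 to 45.7% of the macrophage-like cells with a Ccl2 UMI at 1 dpw and in 37.5 to 56.4% at 5 dpw, against 6.5 to 9.3% of those without one, so that transcripts of both neighbours tended to be read in the same cells of each library.

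Ccl12, a mouse chemoattractant for monocytes that acts on Ccr2, was at 86.8 CPM (80.8 to 93.1) in wild-type and 141 CPM (132 to 151) in knockout macrophage-like cells at 1 dpw. At 5 dpw the levels were 33.5 CPM (30.5 to 36.8) and 52.0 CPM (47.0 to 57.4). Knockout libraries were again the higher of each day, with log2 ratios of 0.70 (0.56 to 0.84) and 0.63 (0.43 to 0.83), which stayed under 2-fold. The lower level at 5 dpw passed 2-fold against 1 dpw in both genotypes, at -1.37 (-1.54 to -1.20) in wild-type and -1.44 (-1.62 to -1.27) in knockout wounds.

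Ccl8, an attractant for monocytes and lymphocytes whose mouse form also signals through Ccr8, was at 136 CPM (129 to 144) in wild-type macrophage-like cells at 1 dpw, against 59.1 CPM (53.0 to 65.7) in knockout cells. At 5 dpw it was at 41.0 CPM (37.6 to 44.6) and 46.3 CPM (41.6 to 51.4). The wild-type library at 1 dpw stood above the other 3, which lay within 41.0 to 59.1 CPM. The order of those 3 depended on the cells counted: with the stricter cell filter the log2 ratio of knockout to wild-type at 5 dpw went from 0.18 to -0.59 and that of 5 to 1 dpw in knockout wounds from -0.35 to -1.51, and the latter was 0.34 with the mean of per-cell CPM. The Ccl8 log2 ratio of knockout to wild-type at 1 dpw was -1.20 (-1.38 to -1.03), or 2.30-fold lower, the only member past 2-fold between genotypes on that day in the 4 myeloid classes. These levels rested on few cells. Only 38 wild-type and 23 knockout macrophage-like cells had a Ccl8 UMI at 1 dpw (3.30% and 2.72%), and 60 and 34 at 5 dpw (3.88% and 5.25%). The cells with a UMI held a mean of 32.1 Ccl8 UMIs in wild-type and 14.9 in knockout wounds at 1 dpw, and the top 1% of cells (12 and 9 cells) held 88.4% and 90.4% of the Ccl8 UMIs.

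**Figure D2:**
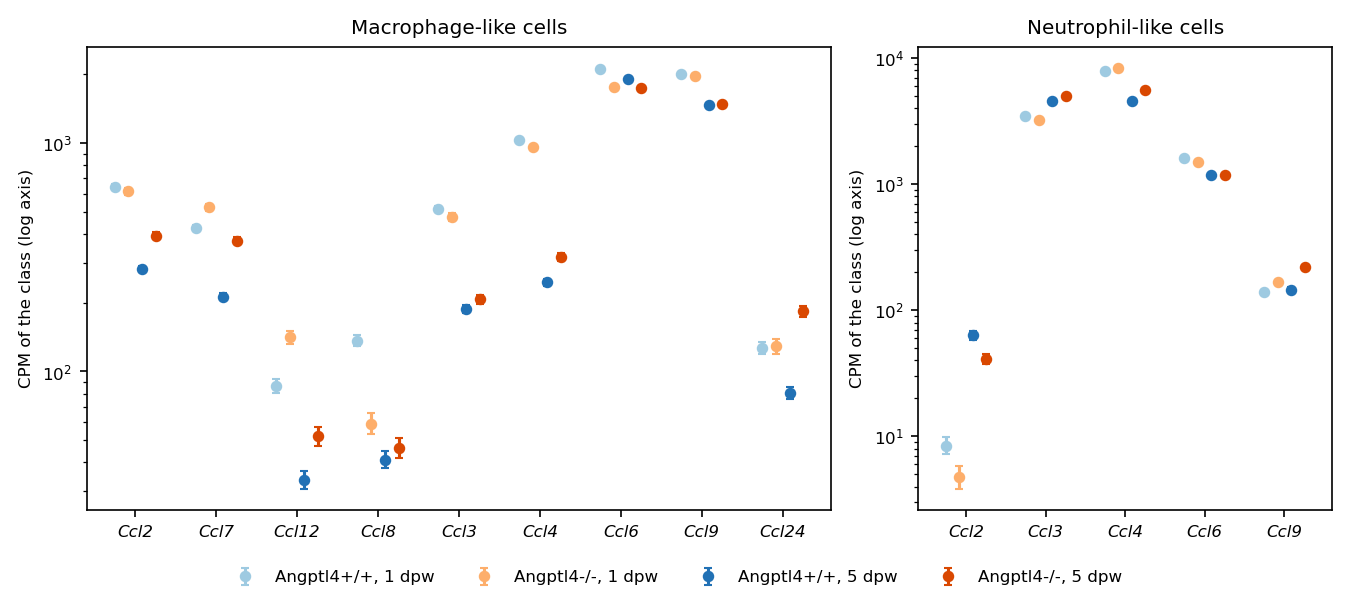
Levels of the ligands in their main cell classes (CPM of the class, log axis), with 1 point per library and bars for the 95% Poisson interval. In macrophage-like cells the 5 dpw points of Ccl2, Ccl7, Ccl12, Ccl3 and Ccl4 lie below the 1 dpw points of the same genotype, while in neutrophil-like cells the 5 dpw points of Ccl2 (63.2 and 41.2) lie above those at 1 dpw (8.43 and 4.75).

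Macrophage-like cells formed a cluster led by Cbr2, Folr2 and C1qa, genes of resident-type macrophages, and a cluster led by Arg1 and Sdc1. At 1 dpw the monocyte chemoattractants were higher in the Folr2 cluster of both genotypes. For Ccl7 this cluster held 884 (842 to 927) CPM in wild-type and 833 (785 to 884) CPM in knockout wounds, against 302 (289 to 315) and 432 (413 to 451) CPM in the Arg1 cluster. At 5 dpw the wild-type library kept the order, with 293 (279 to 307) against 145 (136 to 154) CPM, whereas the knockout library held 357 (338 to 376) against 389.9 (371 to 409.9) CPM. In the Arg1 cluster the knockout library thus held more Ccl7 at 5 dpw, and in the Folr2 cluster the libraries of that day were closer. Ccl2 followed the same division at 5 dpw: the Arg1 cluster held 451 (430.1 to 472) CPM in knockout and 281 (268 to 293) CPM in wild-type wounds, and the Folr2 cluster 334 (316 to 353) and 280.4 (267 to 294) CPM. Ccl8 was concentrated in the Folr2 cluster, at 392 CPM in wild-type and 157 CPM in knockout wounds at 1 dpw, and a finer sub-cluster led by Cbr2 and Folr2 held 64.4% of all Ccl8 UMIs. A sub-cluster led by Cxcl10 and interferon-induced Ifit genes held 33.1% of them. Of the Ccl2, Ccl7 and Ccl12 UMIs this Cxcl10 sub-cluster held 30.7%, 31.1% and 51.2%, beside 24.9%, 41.9% and 41.9% in the Folr2 sub-cluster.

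Outside macrophage-like cells, Ccl2 was read in monocyte-like cells, at 46.8 (38.3 to 56.6) and 80.0 (67.5 to 94.0) CPM at 1 dpw in wild-type and knockout wounds and 66.9 (53.5 to 82.6) and 52.6 (41.3 to 66.2) CPM at 5 dpw, and in neutrophil-like cells. In the latter the level was 8.43 CPM (7.20 to 9.81) in wild-type and 4.75 CPM (3.80 to 5.86) in knockout neutrophil-like cells at 1 dpw. By 5 dpw it was 63.2 CPM (58.0 to 68.7) and 41.2 CPM (37.7 to 44.9). The 5 dpw libraries were the higher in both genotypes, by 7.50-fold in wild-type and 8.67-fold in knockout wounds, or log2 ratios of 2.91 (2.65 to 3.17) and 3.12 (2.79 to 3.46). In this class the median gene was itself higher at 5 than at 1 dpw, by 0.66 on the log2 scale in wild-type and 0.69 in knockout wounds, and relative to that median Ccl2 was higher by 2.25 and 2.43. Knockout libraries were lower than wild-type libraries on both days, with log2 ratios of -0.83 (-1.22 to -0.45) and -0.62 (-0.80 to -0.44).

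Few neutrophil-like cells carried this Ccl2. A UMI was found in 2.03% of wild-type and 1.32% of knockout cells at 1 dpw and in 3.66% and 2.65% at 5 dpw, at median depths of 3218.5 to 4682.5 UMIs per cell. The top 1% of cells held 69.7 to 86.2% of the Ccl2 UMIs of the class. Levels at 5 dpw were highest in the neutrophil-like clusters led by Egr3, at 134 (113 to 158) CPM in wild-type and 119.5 (102 to 139) CPM in knockout wounds, and by Csf1, at 116 (101 to 133) and 70.7 (60.8 to 81.7) CPM. As a measure of free RNA in droplets, 7 macrophage genes were read in neutrophil-like cells at 0.35 to 2.08% of their macrophage-like level in wild-type and 0.16 to 1.96% in knockout wounds at 5 dpw. Ccl2 was at 22.5% and 10.5% of its macrophage-like level in those libraries and at 1.31% and 0.772% at 1 dpw, above the highest of the 7 genes each time. Ccl7, its neighbour, was at 1.19% and 0.435% at 5 dpw, inside that range, and stayed at or under 2.54 CPM in neutrophil-like cells of every library. Ccl8, Ccl12, Ccl22 and Ccl24 were at or under 1.96 CPM there. In monocyte-like cells Ccl2 was at 7.29% and 13.0% of its macrophage-like level at 1 dpw in wild-type and knockout wounds. At 5 dpw it was at 23.8% and 13.4%. These values lay inside the range of the 7 genes in that class, which Apoe topped at 28.3 to 94.5%. The medians were 1.17 to 4.86%, so the range cannot tell whether monocyte-like cells express Ccl2. Ccl7 was in this class at 0.936% and 0.522% of its macrophage-like level at 1 dpw in wild-type and knockout wounds and at 0% and 0.579% at 5 dpw, under those of Ccl2 in every library. With called doublets left out, the log2 ratio of 5 to 1 dpw for Ccl2 in neutrophil-like cells was 2.88 in wild-type and 3.18 in knockout wounds. Mast cell and basophil marker genes summed in neutrophil-like cells to 0.051 and 0 CPM at 1 dpw and to 35.4 and 165.5 CPM at 5 dpw. Erythroid genes summed to 1119 CPM in this class of the knockout library at 5 dpw. The part of such cells in the Ccl2 values was not tested.

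Ccl3, a ligand of Ccr1 that draws monocytes and neutrophils, was at 3442 CPM (3416 to 3468) in wild-type and 3252 CPM (3226 to 3279) in knockout neutrophil-like cells at 1 dpw. At 5 dpw it was at 4526 CPM (4481 to 4571) and 5006 CPM (4967 to 5046). Genotypes of the same day lay close together, with log2 ratios of knockout to wild-type of -0.08 (-0.10 to -0.07) and 0.15 (0.13 to 0.16). In CPM, Ccl3 was higher at 5 dpw, by 0.39 (0.38 to 0.41) and 0.62 (0.61 to 0.64) on the log2 scale, but it was lower relative to the median gene of the class (-0.26 and -0.07), so its direction over time depended on the scaling. At 1000 UMIs per cell Ccl3 was seen in 66.7% of wild-type and 65.8% of knockout neutrophil-like cells at 1 dpw and in 58.4% and 62.1% at 5 dpw. Dendritic cell-like cells, read to deeper medians of 12945 to 14013.5 UMIs against 3218.5 to 4682.5 in neutrophil-like cells, had Ccl3 in 4.25 to 12.6% at the same thinned depth.

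Ccl4, a chemokine encoded beside Ccl3, was the member that parted from it over time. Neutrophil-like cells held 7918 CPM (7878 to 7957) in wild-type and 8289 CPM (8248 to 8331) in knockout wounds at 1 dpw, and 4545 CPM (4500.2 to 4590.1) and 5577 CPM (5535 to 5619) at 5 dpw. Both 5 dpw libraries were the lower, by log2 ratios of -0.80 (-0.82 to -0.78) and -0.57 (-0.58 to -0.56), or -1.46 and -1.26 relative to the median gene. At equal depth 66.7% of wild-type and 69.2% of knockout neutrophil-like cells had a Ccl4 UMI at 1 dpw, and 40.3% and 46.0% at 5 dpw. Of the Ccl3 and Ccl4 UMIs of neutrophil-like cells, Ccl4 made up 69.7% and 71.8% at 1 dpw and 50.1% and 52.7% at 5 dpw. Among neutrophil-like cells with a Ccl3 UMI, Ccl4 was also read in 80.9% and 83.2% at 1 dpw and in 59.4% and 63.5% at 5 dpw, against 38.3%, 42.1%, 13.3% and 17.3% of those without Ccl3.

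The neutrophil-like clusters differed widely in both genes. The cluster led by F3 and Il1a, a gene for an alarm cytokine, held 5234 (5171 to 5298), 5488 (5419 to 5556), 7551 (7437 to 7667) and 9268 (9157 to 9379.8) CPM of Ccl3 in wild-type and knockout wounds at 1 dpw and then at 5 dpw. In the cluster led by Nlrp12 the corresponding levels were 1154 (1128 to 1180.1), 831 (809 to 853), 974 (935 to 1014) and 1219 (1182 to 1257) CPM. Every library therefore held several times more Ccl3 in the Il1a cluster than in the Nlrp12 cluster. Ccl4 at 5 dpw was at 8373 (8253 to 8494) and 11277 (11155 to 11401) CPM in the Il1a cluster and at 997 (957 to 1038) and 1404 (1364 to 1445) CPM in the Nlrp12 cluster. The Il1a cluster supplied 38.7% of the Ccl3 and 39.0% of the Ccl4 UMIs of all cells of the 4 libraries, and the Csf1 cluster 26.3% and 22.1%.

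**Figure D3:**
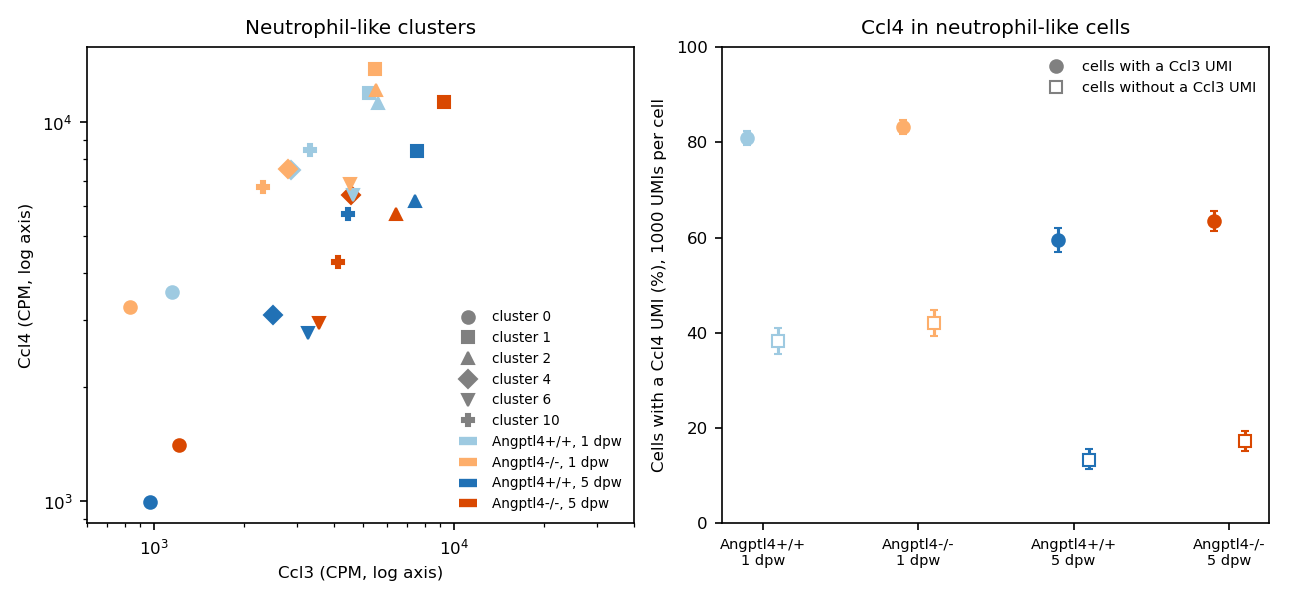
Left, Ccl4 against Ccl3 (CPM, log axes) in each library and neutrophil-like cluster (led by Nlrp12 in 0, Il1a in 1, Csf1 in 2, Ifit3b in 4, Egr3 in 6 and Stfa genes in 10), and right, share of neutrophil-like cells with a Ccl4 UMI among those with and without a Ccl3 UMI at 1000 UMIs per cell, with 95% Clopper-Pearson intervals. The 5 dpw libraries have less Ccl4 for their Ccl3, and Ccl4 is seen in 59.4 to 83.2% of Ccl3-positive and 13.3 to 42.1% of Ccl3-negative cells.

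Both genes were also read in macrophage-like cells, where Ccl4 was at 1031 CPM (1009.6 to 1052) in wild-type and 959 CPM (934 to 985) in knockout wounds at 1 dpw and at 245 CPM (237 to 254) and 318 CPM (305 to 330.4) at 5 dpw. Ccl3 was at 516 (501 to 531), 474 (456 to 492), 188 (181 to 196) and 207 (197 to 217) CPM in the same order. Both genes were lower at 5 dpw by more than 2-fold in each genotype, with log2 ratios of -2.07 (-2.13 to -2.01) and -1.59 (-1.66 to -1.53) for Ccl4 and -1.46 (-1.53 to -1.39) and -1.20 (-1.29 to -1.11) for Ccl3. Other neutrophil transcripts were also lower there at 5 dpw: 6 neutrophil genes were read in macrophage-like cells at a median of 6.61% and 6.38% of their neutrophil-like level at 1 dpw and 2.42% and 2.25% at 5 dpw. Against this, Ccl3 was at 15.0% and 14.6% at 1 dpw, above all 6 genes (4.97 to 11.3% and 4.51 to 12.1%), and at 4.16% and 4.13% at 5 dpw, inside their range (1.45 to 6.70% and 1.67 to 6.03%). Ccl4 was at 13.0% and 11.6% at 1 dpw, of which only the wild-type value lay above the range, and at 5.40% and 5.70% at 5 dpw. The 5 dpw values in macrophage-like cells, and those of monocyte-like and dendritic cell-like cells on both days, were inside the range of the 6 genes. The top of that range was Csf3r in monocyte-like (14.2 to 22.0%) and Il1r2 in dendritic cell-like cells (14.4 to 43.0%). The medians there were 4.66 to 10.6% and 0.675 to 2.22%. The range therefore cannot tell whether these classes express the pair of genes, and expression by a class as a whole is not read from these values. A sub-cluster of the macrophage-like cells was led by the neutrophil genes Retnlg and S100a8. It made up 11.6% and 12.5% of the cells of the class at 1 dpw and 7.17% and 2.31% at 5 dpw. Over the 4 libraries it held 0.199% of all Ccl3 and 0.201% of all Ccl4 UMIs. The Arg1 cluster held 3.39% and 3.37% of them and the Folr2 cluster 1.30% and 1.23%. The part of this sub-cluster in the values of each library was not tested. In the sub-cluster led by Cxcl10 and interferon-induced Ifit genes, Ccl4 was at 1578 (1533 to 1624) and 1289 (1239 to 1341) CPM at 1 dpw and at 319.8 (297 to 345) and 624 (584 to 667) CPM at 5 dpw.

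Ccl6 and Ccl9 are a pair of rodent chemokines that signal through Ccr1 and are made by myeloid cells at rest as well as in inflammation. In macrophage-like cells Ccl6 was at 2101 (2071 to 2131) and 1764 (1730.3 to 1799) CPM at 1 dpw in wild-type and knockout wounds and at 1915 (1891 to 1938) and 1749 (1719 to 1779) CPM at 5 dpw. Neutrophil-like cells held 1625 (1607 to 1643), 1486 (1468 to 1503), 1182 (1159 to 1205) and 1176 (1157 to 1195) CPM in that order. In CPM, no library departed from another by 2-fold in either class. The largest log2 ratio between genotypes was -0.25 (-0.29 to -0.22), in macrophage-like cells at 1 dpw, and the largest between days was -0.46 (-0.49 to -0.43), in wild-type neutrophil-like cells, or -1.12 relative to the median gene. In monocyte-like cells, read to medians of 9535 to 14668.5 UMIs, a Ccl6 UMI was present in 90.2 to 97.7% of cells. At equal depth the share was 43.2 to 53.2%, against 40.2 to 57.0% in neutrophil-like and 51.5 to 55.1% in macrophage-like cells.

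Ccl9 in macrophage-like cells was at 2004 (1975 to 2034) and 1969 (1933 to 2005) CPM at 1 dpw in wild-type and knockout wounds and at 1462 (1441 to 1483) and 1477 (1449.6 to 1504) CPM at 5 dpw. The genotypes differed by -0.03 (-0.06 to 0.01) and 0.01 (-0.02 to 0.05) on the log2 scale, and a UMI was present in 88.9 to 91.7% of these cells. Neutrophil-like cells read far less Ccl9, at 140.3 (135 to 146), 168 (162 to 174), 145 (137 to 153) and 222 (213 to 230.1) CPM in the same order. There the knockout libraries were the higher on both days, with log2 ratios of 0.26 (0.19 to 0.34) and 0.61 (0.51 to 0.71). Within macrophage-like cells both genes were higher in the Folr2 than in the Arg1 cluster in all 4 libraries, for Ccl6 at 5205 against 1271 CPM in wild-type wounds at 1 dpw and at 2687 against 847 CPM in knockout wounds at 5 dpw. At equal depth Ccl9 was read in 74.8 to 83.9% of the macrophage-like cells with Ccl6 and in 43.2 to 58.1% of those without. In neutrophil-like cells Ccl9 was read at 1 dpw in 7.92% of wild-type and 8.59% of knockout cells with Ccl6, against 8.27% and 10.8% of those without. At 5 dpw the shares were 9.55% and 13.8% with Ccl6 and 5.80% and 8.18% without, so only on that day were they higher in cells with Ccl6.

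Ccl22, a dendritic cell and macrophage product that attracts Ccr4-bearing T cells, was at 482 CPM (449 to 517) in wild-type and 948 CPM (893 to 1005) in knockout dendritic cell-like cells at 1 dpw. At 5 dpw the order was the opposite, with 891 CPM (862 to 920.1) in wild-type and 547 CPM (521 to 574) in knockout wounds. The log2 ratio of knockout to wild-type was 0.98 (0.84 to 1.11) at 1 dpw and -0.70 (-0.79 to -0.62) at 5 dpw, neither of them past 2-fold. These classes held 110 and 87 cells at 1 dpw and 306 and 206 at 5 dpw, and a Ccl22 UMI was found in 42.7% and 42.5% at 1 dpw and in 43.1% and 36.4% at 5 dpw. The libraries differed more in the UMIs per cell with Ccl22, at 16.5 in wild-type and 30.5 in knockout wounds at 1 dpw and 27.3 and 21.7 at 5 dpw. The sub-cluster led by Apol7c and Fscn1, a gene of mature, migrating dendritic cells, supplied 85.0% of the Ccl22 UMIs and the Cd209a sub-cluster 12.5%. In the Xcr1 sub-cluster, which corresponds by its leading gene to cross-presenting dendritic cells, only 2 Ccl22 UMIs were counted over all libraries. Within the Fscn1 sub-cluster Ccl22 was at 1091 (1000.1 to 1187) and 2085 (1951 to 2227) CPM at 1 dpw in wild-type and knockout wounds and at 1988 (1922 to 2056) and 1629.7 (1545 to 1717) CPM at 5 dpw. This sub-cluster was 32.7% and 36.8% of the class at 1 dpw (36 and 32 cells) and 44.8% and 32.5% at 5 dpw (137 and 67 cells). The top 1% of dendritic cell-like cells held 15.1 to 38.0% of the Ccl22 UMIs of the class in a library.

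Ccl24, an eotaxin that acts through Ccr3, was at 126 CPM (119 to 134) in wild-type and 129 CPM (119.7 to 138) in knockout macrophage-like cells at 1 dpw. At 5 dpw it was at 80.5 CPM (75.7 to 85.5) in wild-type and 183 CPM (174 to 193) in knockout wounds. The knockout library at 5 dpw was the highest of the 4 and the wild-type library of that day the lowest, although knockout wounds were lower at 5 than at 1 dpw with the mean of per-cell CPM (-1.05) and in thinned cells (-0.67). The log2 ratio of knockout to wild-type at 5 dpw, 1.19 (1.07 to 1.30) or 2.28-fold, was the only one of a member past 2-fold between genotypes at 5 dpw in the 4 myeloid classes, while at 1 dpw the ratio was 0.03 (-0.11 to 0.16). Again few cells decided the level. A Ccl24 UMI was present in 12.8% of wild-type and 15.4% of knockout macrophage-like cells at 5 dpw, at median depths of 8346 and 11544 UMIs, and in 3.79% and 5.01% at 1000 UMIs per cell. The positive knockout cells held a mean of 14.2 Ccl24 UMIs, up to 344 in a single cell, against 5.31 and up to 111 in wild-type wounds. The top 1% of cells (7 of 648 and 16 of 1548) held 66.1% of the Ccl24 UMIs in knockout and 57.9% in wild-type wounds. The difference at 5 dpw was present in both macrophage-like clusters, with 189 (175 to 203) against 65.9 (59.5 to 72.7) CPM in the Folr2 cluster and 178 (165 to 191) against 92.8 (85.8 to 100.2) CPM in the Arg1 cluster.

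**Figure D4:**
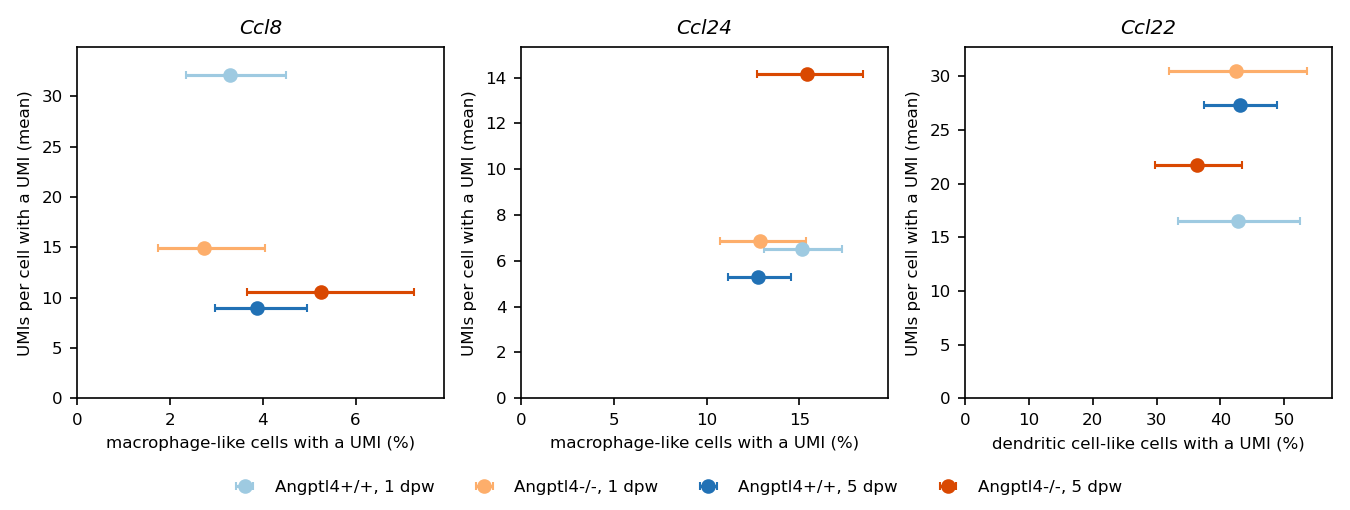
Ligands whose level rested on few cells, with the share of cells that had a UMI (horizontal axis, percent) against the mean UMIs per such cell (vertical axis), 1 point per library, with bars for the 95% Clopper-Pearson interval of the share. Ccl8 stands out in wild-type wounds at 1 dpw with 32.1 UMIs per positive cell and Ccl24 in knockout wounds at 5 dpw with 14.2.

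Across the 4 myeloid classes, 24 pairs of member and class had enough UMIs (100 over both libraries) to be compared. Between genotypes 1 pair was past 2-fold at 1 dpw, Ccl8 in macrophage-like cells (lower in knockout), and 1 at 5 dpw, Ccl24 in macrophage-like cells (higher in knockout). Of all genes compared in the same way, 0.715% were past 2-fold in macrophage-like, 0.958% in neutrophil-like, 0.724% in monocyte-like and 1.37% in dendritic cell-like cells at 1 dpw. At 5 dpw these shares were 1.12%, 1.11%, 0.852% and 1.67%. With called doublets left out, Ccl3 and Ccl4 in monocyte-like cells were also past 2-fold at 5 dpw, at log2 ratios of -1.81 and -1.42. In macrophage-like cells at 5 dpw, 8 of the 9 members compared were higher in the knockout library, with a median log2 ratio of 0.37, beside 3 of 9 and a median of -0.06 at 1 dpw. The median gene of the class was at -0.02 at 5 dpw and 0.02 at 1 dpw. The 8 included Ccl9, at 1477 against 1462 CPM, and Ccl8, which turned to -0.59 with the stricter cell filter. They also included Ccl3 and Ccl4, whose 5 dpw values in this class lay inside the range of the 6 neutrophil genes. These counts and medians describe a pair of libraries each, and the members are not independent of each other.

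Between days the members differed more. In wild-type wounds 9 of 24 pairs were past 2-fold, 1 higher and 8 lower at 5 dpw, and in knockout wounds 7 of 24, 2 higher and 5 lower. Among all genes, 10.8% in macrophage-like, 32.6% in neutrophil-like, 3.97% in monocyte-like and 6.24% in dendritic cell-like cells were past 2-fold in wild-type wounds, and 8.17%, 34.8%, 3.17% and 3.71% in knockout wounds. Counted by direction, 4.31% and 3.67% of all genes were lower in macrophage-like cells and 4.72% and 2.64% in dendritic cell-like cells, and 30.7% and 33% were higher in neutrophil-like cells, in wild-type and knockout wounds. In macrophage-like cells all 9 members compared were lower at 5 dpw in wild-type wounds, with a median log2 ratio of -1.19, where the median gene of the class was higher by 0.15. Relative to that gene the ratios ran from -0.28 for Ccl6 to -2.22 for Ccl4. The 9 included Ccl3 and Ccl4, which counted as lower past 2-fold in both genotypes. Their 5 dpw values in this class, and the knockout Ccl4 value at 1 dpw, lay inside the range of the 6 neutrophil genes. Expression by the class as a whole is not read from them. In knockout wounds 8 of the 9 were lower, with a median of -0.49, and Ccl24 was the exception at 0.51 (0.38 to 0.64), a direction that turned under the 2 alternatives given with its levels. In dendritic cell-like cells Ccl4, Ccl6 and Ccl9 were lower at 5 dpw, by log2 ratios of -1.86 (-2.03 to -1.69), -1.05 (-1.32 to -0.78) and -1.24 (-1.42 to -1.06) in wild-type and -2.17 (-2.38 to -1.97), -1.22 (-1.55 to -0.88) and -0.997 (-1.21 to -0.78) in knockout wounds. In every library the Ccl4 and Ccl6 values of this class lay inside the range of the 6 neutrophil genes. Those of Ccl6 and Ccl9 lay inside the range of the 7 macrophage genes. The top of each range was a single gene, Il1r2 (14.4 to 43.0%) and Mrc1 (14.3 to 32.7%). The medians were far lower, at 0.675 to 2.22% and 1.17 to 2.67%. These ranges therefore cannot tell whether dendritic cell-like cells express Ccl4, Ccl6 and Ccl9. Ccl6 in wild-type wounds dropped under 2-fold in 4 of the alternatives tried, to -0.79 without integration. In knockout wounds Ccl6 was at -0.68 and Ccl9 at -0.30 without integration. Besides Ccl2 in neutrophil-like cells, Ccl3 in monocyte-like cells of knockout wounds was the only pair past 2-fold upward, at 1.13 (0.95 to 1.32), and it turned to -0.14 when called doublets were left out. In wild-type monocyte-like cells the same step moved Ccl3 from 0.82 to 1.98.

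**Figure D5:**
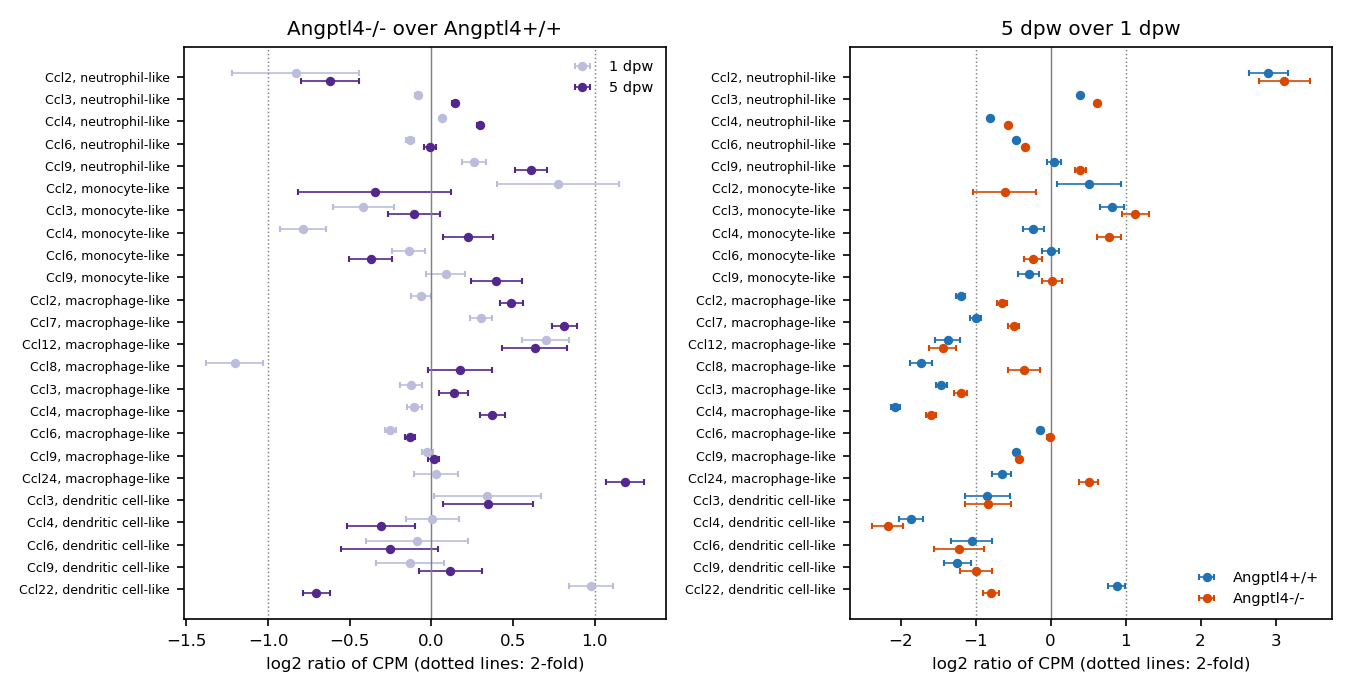
Log2 ratios of CPM with 95% intervals for the 24 pairs of member and class, between genotypes (left) and between days (right), with dotted lines at 2-fold. Of the genotype ratios only Ccl8 at 1 dpw (-1.20) and Ccl24 at 5 dpw (1.19) in macrophage-like cells lie beyond the lines, while between days Ccl2 in neutrophil-like cells lies far to the right (2.91 and 3.12) and most macrophage-like ratios lie left of 0.

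In whole libraries the levels also followed the shares of the cell classes. At 5 dpw all cells together held 1456 CPM of Ccl3 in wild-type and 2394 CPM in knockout wounds, a log2 ratio of 0.72. With the knockout class levels weighted by the UMI make-up of the wild-type library, the ratio was 0.14. For Ccl4 the pair of values was 0.85 and 0.30. The macrophage-like genes moved the other way under this weighting, Ccl7 from 0.18 to 0.79, Ccl12 from -0.02 to 0.60 and Ccl2 from -0.12 to 0.36. Between days in wild-type wounds, Ccl22 was 2.37 higher on the log2 scale in all cells and 0.92 at equal make-up. A whole-library level of these ligands thus holds the share of all UMIs that came from their source cells together with the level in them. That share is not the share of cells. At 5 dpw neutrophil-like cells were 54.7% of cells but 29.4% of UMIs in the wild-type library, and 74.0% and 45.7% in the knockout library.

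Of the other CC ligands, 11 genes were followed in the same 4 classes. None of 3 pairs with enough UMIs was past 2-fold between genotypes at 1 dpw and none of 5 at 5 dpw. From 1 to 5 dpw in wild-type wounds 3 of 5 were, with Ccl17, the partner of Ccl22 at Ccr4, higher in dendritic cell-like cells by 1.88 (1.58 to 2.19) and in macrophage-like cells by 5.07 (3.49 to 7.36, from 3 to 147 UMIs), and the T cell attractant Ccl5 lower in macrophage-like cells by -1.47 (-1.65 to -1.29). In knockout wounds it was 0 of 3. Of 14 CC receptors, 0 of 18 pairs at 1 dpw and 0 of 19 at 5 dpw were past 2-fold between genotypes. Receptors of the members were read in classes they are known from: Ccr1, which reads Ccl3, Ccl6 and Ccl9, was at 1182 to 1975 CPM in neutrophil-like cells, and Ccr2, which reads Ccl2, Ccl7 and Ccl12, at 1093 to 1731 CPM in monocyte-like and 675 to 1267 CPM in macrophage-like cells. From 1 to 5 dpw, 2 of 19 receptor pairs were higher past 2-fold in wild-type wounds, and 2 were higher and 1 lower of 19 in knockout wounds. The higher pairs were Ccr2 and Ccr3 in neutrophil-like cells of both genotypes, at low levels. They were 2 of the 5 receptors compared in that class, where 30.7% and 33% of all genes were higher past 2-fold in wild-type and knockout wounds. The median gene there was higher by 0.66 and 0.69 on the log2 scale. Ccr2 had log2 ratios of 1.35 (0.85 to 1.85) and 1.33 (0.74 to 1.94), but its 2.13 to 8.53 CPM lay inside the range of the 7 macrophage genes as a share of the macrophage-like level and are not read as expression. Ccr3, the receptor of Ccl24, had log2 ratios of 2.26 (1.78 to 2.76) and 2.05 (1.498 to 2.64), from 2.69 to 12.9 CPM in wild-type and from 2.02 to 8.38 CPM in knockout wounds. Eosinophil marker genes, which include Ccr3, summed in this class to 5.99 and 5.46 CPM at 1 dpw and 28.1 and 18.5 CPM at 5 dpw. Mast cell and basophil marker genes summed to 0.051 and 0 CPM and to 35.4 and 165.5 CPM in the same order. The part of such cells in the Ccr3 values was not tested. Other prominent genes of these lists were Ccr7, which guides dendritic cells to lymph nodes, at 648 to 1142 CPM in dendritic cell-like cells, Ccl5 at 649 to 1136 CPM in the same class, and Ccrl2, an atypical receptor, at 500.04 to 670.3 CPM in neutrophil-like cells.

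The genes whose pattern was most like that of each ligand were found over 42 points, each the sum of 1 cluster in 1 library, by Pearson's r of log2(CPM + 1) among 8713 genes. The points share libraries and classes, so r is a description and has no p. Ccl3 was closest to Hcar2 (r = 0.97), Tnfrsf23 (0.97) and Sntb2 (0.96), and Ccl4 to Acod1 (0.96), Dach1 (0.96) and Upp1 (0.95). Ccl7 ran with Mertk (0.94), Cd109 (0.94) and Arg1 (0.93), Ccl8 with Ms4a14 (0.95), Folr2 (0.93) and Pf4 (0.93), Ccl12 with Ms4a14 (0.97), Mertk (0.95) and Pmp22 (0.94), and Ccl24 with Mertk (0.97), Ms4a14 (0.96) and Pf4 (0.96). Ccl2 had weaker partners, in BC005537 (0.87), Tmem87b (0.87) and Ccdc71l (0.85). Ccl6 was closest to Itgam (0.89), Fcgr4 (0.86) and Mindy1 (0.86), Ccl9 to Rab1a (0.91), Siglec1 (0.90) and Cd36 (0.89), and Ccl22 to Arhgef40 (0.96), Tubb2b (0.95) and Adam23 (0.95). Among the members themselves, r was 0.96 for Ccl3 with Ccl4, 0.96 for Ccl8 with Ccl12 and 0.96 for Ccl12 with Ccl24.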

How the data were processed

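Leukocytes of the 4 wound libraries were measured by droplet single-cell RNA sequencing. Per the submitters' processing notes, the authors used Cell Ranger 3.1.0 on the mm10 genome and Seurat 3.0, and they deposited a matrix of UMI counts per gene and barcode for each library, with lists of genes and barcodes. Counts were used as deposited, and all columns were mapped to a library. The members and all lists were chosen with earlier results of these data known.

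Cells were kept from 200 detected genes upward and up to 10% mitochondrial UMIs (19827 of 20069). Libraries were integrated and clustered with Seurat 5.3.0 in R 4.3.3 (Matrix 1.6.5; 2000 variable genes, 30 dimensions, Louvain resolution 0.5), leaving out the 35 CC ligand and receptor genes. Clusters were named from marker lists of neutrophils, monocytes, macrophages, dendritic cells, NK and T cells and B cells. Lists of mast cells and basophils, eosinophils, keratinocytes, fibroblasts, endothelial cells and erythroid cells were scored as well and named no cluster. The 11 sub-clusters came from clustering the dendritic cell-like, monocyte-like and macrophage-like cells again. Cells were scored with Scrublet in scanpy 1.11.5, and the 180 to 229 cells with the highest scores in each library were called doublets. That number was set in advance from the passing cells of the library and is not a count of detected doublets. The called cells were kept.

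UMIs were summed per class and library and divided by the class total (CPM). Intervals are exact Poisson (levels), conditional binomial (ratios) and Clopper-Pearson (shares) 95% intervals, computed with Python 3.11.15, numpy 2.4.6, scipy 1.17.1 and pandas 2.3.3. A pair needed 100 UMIs over both libraries to be compared, and 2-fold was the threshold. Since each group is 1 library, no test was run. To compare shares of cells, each cell was thinned to 1000 UMIs, which left out 98 and 157 shallower cells of wild-type and 86 and 101 of knockout libraries at 1 and 5 dpw. The ratio step was tested on simulated data. Named genes were the 10 members, the 3 genes most alike to each (at least 500 UMIs, points of at least 50 cells, log2 of CPM plus 1), and other CC ligands and receptors past 2-fold or among the 3 highest of their list in a class, of which 1 receptor is not reported here. Free RNA was gauged from 7 macrophage genes (C1qa, C1qb, C1qc, Apoe, Ms4a7, Mrc1, Pf4) and 6 neutrophil genes (S100a8, S100a9, Retnlg, Csf3r, Il1r2, Hdc). Alternatives were a stricter cell filter (500 genes, 5% mitochondrial), no integration, resolution 1, doublets left out, the mean of per-cell CPM, thinned cells, median-ratio scaling and a minimum of 20 UMIs.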

Additional observations from a re-analysis of the deposited data

Results flagged for a closer look

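Ccl22 in dendritic cell-like cells differed between genotypes in opposite directions on the 2 days. The log2 ratio of knockout to wild-type was 0.98 (0.84 to 1.11) at 1 dpw, from 948 against 482 CPM, and -0.70 (-0.79 to -0.62) at 5 dpw, from 547 against 891 CPM. Each value compares 1 library with 1 library, and the difference between the days was not tested. Its direction held on both days in the 7 alternatives that recomputed it, at 0.72 to 1.26 and -0.60 to -0.96. The alternatives drew on largely the same cells. The Fscn1 sub-cluster, which supplied 85.0% of the Ccl22 UMIs, held 36 wild-type and 32 knockout cells at 1 dpw.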

How the results depend on the processing

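The count of member and class pairs past 2-fold between genotypes at 1 dpw was 1, and it was 2 with the mean of per-cell CPM and 2 with cells thinned to 1000 UMIs. At 5 dpw the count was 1, and it was 2 with the stricter cell filter, 3 with called doublets left out, 2 with thinned cells and 4 with a minimum of 20 UMIs. With doublets left out, the knockout to wild-type ratio in monocyte-like cells at 5 dpw went from -0.11 to -1.81 for Ccl3. For Ccl4 it went from 0.22 to -1.42. With the stricter filter, Ccl4 in dendritic cell-like cells went from -0.31 to -1.04 on that day. Between days the counts of 9 (wild-type) and 7 (knockout) ranged from 8 to 13 and from 5 to 10. Thinned cells left 70 ratios to compare, against 96 in the alternatives on all cells, and the minimum of 20 UMIs admits pairs with fewer UMIs. The counts therefore rest on different numbers of pairs. The shares of all genes past 2-fold under the alternatives are not given here, so the counts are not read as a result about the members. Ccl3 in monocyte-like cells of knockout wounds, 1.13 between days, was -0.14 with called doublets left out. In wild-type wounds the same step moved Ccl3 the other way, from 0.82 to 1.98. Ccl4 went from -0.23 to 1.02 in wild-type and from 0.78 to -0.27 in knockout monocyte-like cells. The cause was not tested. Of the 18 ratios past 2-fold, 16 to 18 stayed past it in each of the 6 alternatives on all cells, and 12 of 12 did in thinned cells. Ccl8 at 1 dpw stayed between -1.10 and -1.86 and Ccl24 at 5 dpw between 1.04 and 1.51 in macrophage-like cells.

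Median-ratio scaling turned Ccl3 between days in neutrophil-like cells from 0.39 to -0.35 in wild-type and from 0.62 to -0.14 in knockout wounds, and Ccl9 from 0.05 to -0.70 and from 0.40 to -0.37. It took Ccl4 in this class past 2-fold lower, from -0.80 to -1.55 and from -0.57 to -1.34. Ccl6 also passed 2-fold, from -0.46 to -1.20 and from -0.34 to -1.10. The levels of Ccl8 and Ccl24 moved with the weight given to few cells. Ccl8, Ccl12, Ccl22 and Ccl24 had too few UMIs in neutrophil-like cells to be compared, with 0 to 17 in a library. The part of depth in these low counts was not tested. No paired analysis was possible because the labels carry no replicate numbers and each group is 1 library.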

Other observations

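Ccl4 was also read in NK cell/T cell-like cells, a class of 36 wild-type and 36 knockout cells at 1 dpw and 226 and 219 at 5 dpw. Its level there was 1079 CPM (960.2 to 1208) in wild-type and 1575 CPM (1434 to 1727) in knockout cells at 1 dpw, and 327 CPM (304 to 351) and 467 CPM (439.6 to 495) by 5 dpw. Against its neutrophil-like level Ccl4 was at 13.6% and 19.0% at 1 dpw and 7.20% and 8.37% at 5 dpw. The 6 neutrophil genes used to gauge free RNA ran up to 14.8% and 9.83% at 1 dpw and 4.22% and 3.71% at 5 dpw in this class, so Ccl4 stood above them in 3 of the 4 libraries. Ccl3, at 3.64% and 3.33% of its neutrophil-like level at 5 dpw, stayed inside their range on that day. Cytotoxic lymphocytes are a known source of both chemokines.

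Ccl1, a ligand of Ccr8 that was looked at because of its values, had 631 UMIs in the 36 NK cell/T cell-like cells of the wild-type library at 1 dpw and 1, 0 and 0 UMIs in this class of the knockout library at 1 dpw and of the wild-type and knockout libraries at 5 dpw.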
